A study of Mus musculus with 7 samples.

Results

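PT2385 given alone was set against immune checkpoint blockade (ICB) given alone, in leukocytes from mouse brains that carried GL261 glioma. The comparison covered 21185 kept cells of the 38468 kept in the series, namely every kept cell of the 2 libraries labelled PT2385 (4974 and 5076 cells) and of the 2 libraries labelled ICB (5602 and 5533 cells). All of these mice were wild type (WT), female and 8 to 9 weeks old, and all carried tumours of GL261, a mouse glioma line, in the left hemisphere. PT2385 was dosed at 10 mg/kg from day 7. The ICB mice received antibodies to PD-1 and TIM-3 (aPD-1, aTIM-3). Per the labels the drug course lasted 21 days, yet the tumours were collected on day 21, and no label says whether ICB mice got the drug's vehicle or PT2385 mice the isotype antibodies. Living CD45+ DRAQ7- cells were sorted, and each library pooled 5000 sorted cells from each of 2 mice, so a group was 2 pools. Pools 1 and 2 of a group are numbered by accession, which only names them. The SEs and p-values of the main fits below compare 2 pools per group, with the spread estimated over all 7 libraries. A fit without a PT2385 or ICB pool leaves 1 library in that group. Its p-values and counts of passing genes then hold no spread between that group's pools.

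PT2385 blocks HIF-2α, the protein of Epas1, a transcription factor subunit that is stabilised when oxygen is low and acts with its partner ARNT. PD-1 (Pdcd1) and TIM-3 (Havcr2) are inhibitory receptors of activated T cells, and TIM-3 is also carried by microglia, macrophages and dendritic cells. Gliomas hold resident microglia, macrophages derived from blood monocytes, antigen-presenting dendritic cells, T cells and natural killer (NK) cells. Interferon gamma from T and NK cells induces antigen presentation genes, guanylate-binding proteins and, in macrophages, inducible nitric oxide synthase.

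Cells were put into classes by the UMIs (unique molecular identifiers, 1 per captured transcript) of marker genes. Of the 21185 cells, 17391 fell into microglia, macrophages, dendritic cells, CD8 T, CD4 T, regulatory T or NK cells, with 76 to 3135 cells per class and library. Levels of these markers follow from the classing itself, so they describe the classes and are no independent check of the class names. The summed level of the 8 microglia markers was 5309 and 6334 CPM (counts scaled to the total of a class in a library) in the microglia of the PT2385 pools and 8343 and 6820 CPM in those of the ICB pools, and 183 to 264 CPM in macrophages. Levels of single genes are CPM with TMM factors, and summed marker levels are CPM without them. The 4 libraries held 66377747 to 74057438 UMIs, with medians of 11682.5 and 10535 UMIs per kept cell in the PT2385 pools and 8361.5 and 10271 in the ICB pools. Between 3 and 9 cell barcodes were shared by any pair of these libraries.

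ICB pool 1 stood apart in its share of macrophages and in macrophage genes. Macrophages made up 36.2% of its cells, against 55.5% to 60.8% in the other 3 libraries. Among macrophages, the median absolute log2 difference of a gene between the PT2385 pools was 0.07, while the ICB pools differed by 0.15 from each other. ICB pool 1 differed by 0.19 from either PT2385 pool, and ICB pool 2 by 0.14 and 0.12. Results that rest on ICB pool 1 are therefore given with and without it, and "without ICB pool 2" means PT2385 against ICB pool 1 alone. Other classes differed in this. The PT2385 pools lay farther apart than the ICB pools in dendritic (0.18 against 0.16), NK (0.20 against 0.18) and regulatory T cells (0.22 against 0.21). Calls of single genes are mostly given for fits without an ICB pool, and in most classes few or no genes passed without a PT2385 pool.

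Of 20 cell classes, choroid plexus cells were the 1 whose share passed the test (5%), and none of the 7 leukocyte classes did. Microglia made up 8.20% and 10.4% of kept cells with PT2385 and 14.2% and 11.6% with ICB. These libraries did not overlap, and the log2 fold change (PT2385 minus ICB, here and below) was -0.48 ± 0.36 (SE; adjusted p = 0.54, edgeR's quasi-likelihood test with Benjamini-Hochberg adjustment, as below). NK cells, the cytotoxic innate lymphocytes, took 3.20% and 2.78% with PT2385 and 6.94% and 3.81% with ICB (-0.85 ± 0.60, adjusted p = 0.54). ICB pool 1 was the high library here, and the difference was -0.35 without it and -1.22 without ICB pool 2.

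Macrophages took 55.5% and 60.8% of cells with PT2385 and 36.2% and 56.7% with ICB. Their difference of 0.32 ± 0.26 (adjusted p = 0.54) was 0.04 without ICB pool 1 (adjusted p = 0.96) and 0.68 without ICB pool 2 (adjusted p = 0.013). Dendritic cells took 3.54% and 3.92% against 5.25% and 3.81%, and regulatory T cells 1.91% and 1.5% against 2.82% and 1.43%. CD8 T cells took 5.53% and 3.39% against 4.11% and 3.85%. CD4 T cells took 4.34% and 4.43% against 4.61% and 4.10%, and their log2 fold change of 0.01 ± 0.56 changed sign under several settings. For these last 4 classes the libraries of the 2 groups overlapped. With 2 against 2 libraries an exact permutation test, two-sided, cannot go below p = 0.333.

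**Figure D1:**
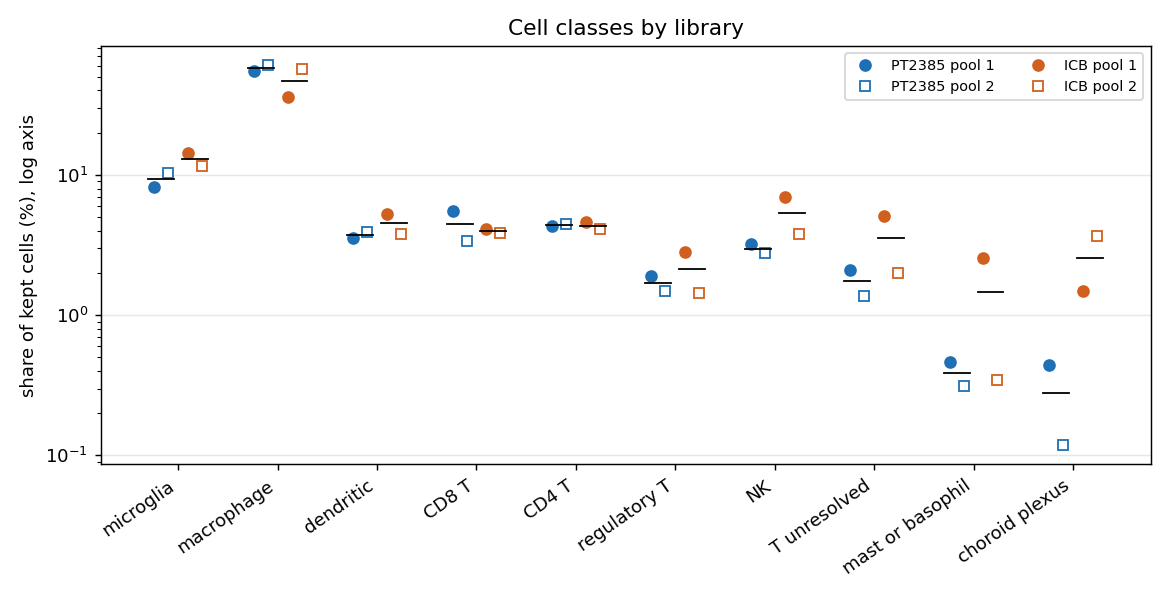
Share of kept cells (%, log axis) for 10 cell classes in the 4 libraries; filled circles are pool 1, open squares pool 2, blue PT2385, orange ICB, and bars the group means. Macrophages are lowest in ICB pool 1 (36.2%), and choroid plexus cells lie between 0.118% and 0.442% with PT2385 and at 1.5% and 3.65% with ICB.

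Choroid plexus cells, the epithelium that makes cerebrospinal fluid, are no leukocytes but were among the sorted cells. They made up 0.442% and 0.118% of kept cells with PT2385, 1.5% and 3.65% with ICB and 0 of 7446 cells in the untreated library (which allows up to 0.0403%). Their share fell by 3.19 ± 0.65 on the log2 scale with PT2385 relative to ICB (adjusted p = 1.5e-04), by 3.70 without ICB pool 1 and by 2.41 without ICB pool 2. The call was lost without PT2385 pool 2 (-2.54, adjusted p = 0.099) and with TMM factors in place of the total of cells (-3.01, adjusted p = 0.16). Ttr, the thyroid hormone carrier that choroid plexus makes in bulk, was higher in both ICB pools than in either PT2385 pool in all 7 leukocyte classes. After thinning each cell to 3000 UMIs, 13.2% and 25.9% of microglia of the ICB pools held a Ttr UMI, against 0.725% and 0.840% in the PT2385 pools. Over the 7 classes the shares ran from 7.14% (dendritic cells) to 16.4% (CD8 T cells) in ICB pool 1 and from 22.9% (NK cells) to 30.9% (dendritic cells) in ICB pool 2. Ttr passed the test in microglia, dendritic and NK cells, and the part of choroid plexus RNA in these values was not tested.

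Within macrophages, Nos2 and the pair Pf4 and Mrc1 separated the treatments most widely. Thinning left out the 116 to 233 macrophages per library that held under 3000 UMIs. The remaining cells were classed again on the thinned counts, so the thinned classes differ somewhat from the full ones. Nos2, inducible nitric oxide synthase, had at least 1 UMI in 35.9% and 27.6% of macrophages with PT2385 and in 1.37% and 2.53% with ICB, at 3000 UMIs per cell. The untreated library held 7.72%. The difference was 4.01 ± 0.78 on the log2 scale (adjusted p = 0.0031), and the shares without thinning were 48.0% and 38.7% against 3.35% and 4.91%. It passed without ICB pool 1 (3.65, adjusted p = 0.033) and without ICB pool 2 (4.53, adjusted p = 0.010). In microglia, which should hold little Nos2, 4 of 276 cells of PT2385 pool 1 had a UMI (1.45%), at a median of 6078.5 UMIs per cell before thinning against 13665 in macrophages.

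Pf4 (platelet factor 4) and Mrc1 (the mannose receptor) mark macrophages of the brain's borders and alternatively activated macrophages. A UMI of either was held by 5.79% and 7.79% of macrophages with PT2385, by 38.8% and 21.0% with ICB and by 19.0% in the untreated library. This share fell by 2.14 ± 0.62 with PT2385 relative to ICB (adjusted p = 0.018), by 1.63 without ICB pool 1 and by 2.51 without ICB pool 2. Without thinning the shares were 16.8% and 19.6% against 55.6% and 37.3%. Ly6c2, a surface protein of inflammatory monocytes and also a marker used to class macrophages, was held by 71.4% and 73.1% against 60.7% and 60.3% (0.26 ± 0.03, adjusted p = 1.4e-04). Thus 3 of 6 states passed (50%).

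The other 3 states did not pass. Arg1, arginase, was held by 36.1% and 28.9% of macrophages with PT2385 and by 22.8% and 19.0% with ICB (0.64 ± 0.49, adjusted p = 0.27). Mki67 or Top2a, genes of dividing cells, were held by 4.92% and 5.52% against 10.1% and 6.4% (-0.65 ± 0.31, adjusted p = 0.10). Rsad2, Ifit2 or Ifit3, induced by type I interferon, were held by 43.6% and 43.4% with PT2385 and by 52.1% and 34.1% with ICB. For this state the ICB pools lay on either side of PT2385. Its difference was 0.35 without ICB pool 1 and -0.26 without ICB pool 2.

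**Figure D2:**
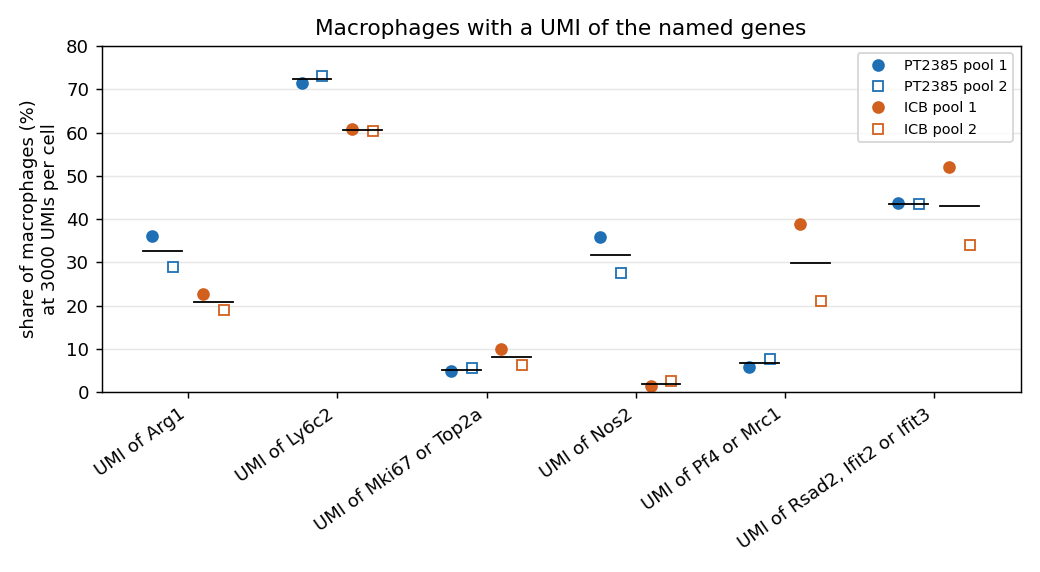
Share of macrophages (%) with at least 1 UMI of each gene or gene pair at 3000 UMIs per cell, in the 4 libraries, with group means as bars. Nos2 lies at 35.9% and 27.6% with PT2385 and under 3% with ICB, and Pf4 or Mrc1 under 8% with PT2385 and at 38.8% and 21.0% with ICB.

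In macrophages 2 of 15462 genes tested passed (0.0129%), 1 higher and 1 lower (0.00647% each), while 2815 had an unadjusted p under 0.05 (18.2%) and DESeq2 called 760. C4b, the complement component C4, stood at 41.5 and 43.3 CPM with PT2385, 17.8 and 17.1 CPM with ICB and 26.0 CPM in the untreated library. Both PT2385 pools lay above every other of these values, and C4b rose by 1.28 ± 0.09 (adjusted p = 0.035), with 1.31 without ICB pool 1 and 1.26 without ICB pool 2. Stxbp6, which binds proteins of vesicle fusion, fell by 2.07 ± 0.14 (adjusted p = 0.035). Its mean is under the 20 CPM asked of named genes, and it is named because it is the other gene that passed. Without PT2385 pool 1 or PT2385 pool 2 no macrophage gene passed. Without ICB pool 1 52 passed, and without ICB pool 2 2482.

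The macrophage genes with the next smallest p did not pass, though their libraries did not overlap. Hmox1, the haem-degrading enzyme, was at 183 and 179 CPM with PT2385 and 87.9 and 89.6 CPM with ICB (1.03 ± 0.09, adjusted p = 0.061). Cyfip2, part of an actin-regulating complex, differed by 1.06 ± 0.11, Crip1 by -0.81 ± 0.08, Cd83, a co-stimulatory surface protein, by -0.73 ± 0.08, and Rel, an NF-κB subunit, by -0.90 ± 0.10 (adjusted p = 0.080 each). Spp1, osteopontin, was at 15.1 and 26.6 CPM with PT2385 and 126 and 99.4 CPM with ICB (-2.43 ± 0.27, adjusted p = 0.080). S100a4 was at 60.8 and 87.0 CPM against 294 and 224 CPM (-1.81 ± 0.22, adjusted p = 0.092). All 7 genes kept their sign without either ICB pool.

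Genes induced by interferon gamma were higher in the macrophages of PT2385 mice. Of 25 tested, 22 were higher in both PT2385 pools than in either ICB pool and 1 was lower, where 25.8% and 24.8% of all tested genes were. None passed the adjusted test, and 19 had an unadjusted p under 0.05. The list's median log2 fold change was 0.92 (0.91 without ICB pool 1, 1.13 without ICB pool 2), beside -0.01 over all genes. The promoters of Igtp and Gbp2b, a pair of interferon-induced GTPases that fight intracellular pathogens, are shown because members of the list moved together. They are the 250 bases before the start of the gene, from RefSeq (GRCm38.p6, a different build from the counts), 5′ to 3′ on the gene's strand: Igtp on the + strand at chr11:58199306-58199555, Gbp2b on the + strand at chr3:142594597-142594846. Capitals mark the interferon-stimulated response element, read as GAAA, any 2 bases and GAAA, on both strands.
Igtp: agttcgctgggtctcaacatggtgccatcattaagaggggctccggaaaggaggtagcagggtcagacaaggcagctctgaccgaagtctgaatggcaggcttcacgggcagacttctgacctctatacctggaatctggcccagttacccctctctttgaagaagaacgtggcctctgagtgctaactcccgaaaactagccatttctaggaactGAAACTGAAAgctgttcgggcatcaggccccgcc
Gbp2b: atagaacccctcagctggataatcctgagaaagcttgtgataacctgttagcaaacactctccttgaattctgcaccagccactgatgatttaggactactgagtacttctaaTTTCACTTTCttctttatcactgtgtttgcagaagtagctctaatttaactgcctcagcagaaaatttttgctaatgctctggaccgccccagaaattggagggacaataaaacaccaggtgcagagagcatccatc
The motif stood in 12 of the 16 promoters of this list that were in the table (75%), and in 936 of 27025 promoters of the same length (3.46%). These matches are a description of letters and no sign of binding.

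Igtp stood at 199.9 and 202 CPM with PT2385, 68.3 and 91.5 CPM with ICB and 132 CPM in the untreated library (1.33 ± 0.21, adjusted p = 0.10). Gbp2b stood at 125 and 84.3 CPM against 20.8 and 28.7 CPM (2.07 ± 0.39, adjusted p = 0.11). Gbp4, another guanylate-binding protein, stood at 191 and 168 CPM against 50.9 and 71.4 CPM (1.55 ± 0.29, adjusted p = 0.11). The PT2385 pools lay above both ICB pools for all 3 genes, with the untreated library between them. Nos2 itself was at 423 and 290.1 CPM with PT2385 and at 7.78 and 20.5 CPM with ICB (4.64 ± 0.73, adjusted p = 0.10). Cxcl9, a chemokine that draws T cells and another target of interferon gamma, went with none of this, at 1072 and 1115 CPM against 1067 and 1191 CPM. When macrophages with a UMI of Nos2, Pf4 or Mrc1 were left out, the list's median was 0.37 and 138 macrophage genes passed. This alternative was chosen after seeing the data. Interferon gamma induces Nos2, so the choice of cells was not independent of the list.

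MHC class I genes, which present peptides to CD8 T cells, were higher in both PT2385 pools for 19 of 20 members in macrophages and lower for 1, with a median of 0.37. Over all macrophage genes 25.8% were higher and 24.8% lower. H2-Q7, which shares reads with near-identical copies and is uncertain, was at 641 and 651 CPM against 366 and 389 CPM (0.77 ± 0.10, adjusted p = 0.092). Tap1, of the peptide transporter, was at 343 and 339.9 CPM against 214 and 257 CPM. Cd274, the PD-1 ligand PD-L1, was at 827 and 708 CPM with PT2385, 291 and 382 CPM with ICB and 494 CPM untreated (1.19 ± 0.25, adjusted p = 0.12). MHC class II genes had a median of 0.04 in macrophages (-0.17 without ICB pool 1, 0.30 without ICB pool 2), with 3 of 11 higher and 2 lower.

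Chemokine genes were lower in the macrophages of PT2385 mice, 15 of 21 in both pools and 1 higher (median -1.20, and -0.86 without ICB pool 1). Ccl9 was at 37.1 and 49.8 CPM with PT2385 and 162 and 188 CPM with ICB (-2.01 ± 0.28, adjusted p = 0.10). Ccl12, which draws monocytes, was at 158 and 162 CPM against 515 and 292 CPM (-1.33 ± 0.26, adjusted p = 0.12). Ccl5, a T cell attractant, was the exception, at 5961 and 5036 CPM with PT2385 and 605 and 2222 CPM with ICB (1.96 ± 0.54, adjusted p = 0.17). None of the 21 passed, and 24.8% of all macrophage genes were lower and 25.8% higher.

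Sterol genes were also lower in the macrophages of PT2385 mice, 12 of 17 in both pools with 3 higher (median -1.13, -0.67 without ICB pool 1 and -1.59 without ICB pool 2), and none passed. The shares over all macrophage genes were 24.8% lower and 25.8% higher. Fdps, which makes farnesyl pyrophosphate, was at 25.9 and 37.4 CPM with PT2385 and 152 and 69.3 CPM with ICB (-1.80 ± 0.42, adjusted p = 0.14). Insig1, which holds back sterol synthesis, was at 37.3 and 39.3 CPM against 85.9 and 66.7 CPM (-1.0 ± 0.15, adjusted p = 0.10). Abcg1 and Nr1h3, of sterol export and its control, lay the other way at 0.59 ± 0.14 and 0.56 ± 0.11 (adjusted p = 0.14 and 0.12). ICB pool 1 was the highest of the 4 libraries for Fdps and Insig1.

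Of 29 genes of hypoxia and glycolysis, 21 were higher in both PT2385 pools in macrophages with 4 lower (median 0.38, 0.22 without ICB pool 1). Of 12 genes associated with HIF-2α, the target of PT2385, 4 were higher and 2 lower (median -0.09, 0.13 without ICB pool 1). Among all tested genes, 25.8% were higher and 24.8% lower. No gene of either list passed in macrophages. With the cells that held a UMI of Nos2, Pf4 or Mrc1 left out, the median of the hypoxia and glycolysis list was 0.00. Bnip3, a mitochondrial protein induced in hypoxia, was at 93.6 and 80.8 CPM with PT2385 and 46.9 and 57.8 CPM with ICB (0.74 ± 0.16, adjusted p = 0.13). Its promoter is shown for the core of the hypoxia response element, ACGTG, searched on both strands, and capitals mark a run in which a match on each strand overlaps (RefSeq, GRCm38.p6, chr7:138909507-138909756, - strand, 5′ to 3′).
Bnip3: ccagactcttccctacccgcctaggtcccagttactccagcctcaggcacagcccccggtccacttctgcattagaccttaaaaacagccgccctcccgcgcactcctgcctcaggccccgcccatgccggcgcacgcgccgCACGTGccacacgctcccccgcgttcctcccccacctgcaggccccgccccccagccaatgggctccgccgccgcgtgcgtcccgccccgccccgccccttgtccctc
ACGTG stood in 16 of the 27 promoters found for the hypoxia and glycolysis list (59.3%) and in 4998 of 27025 promoters (18.5%). The promoters of Pfkfb4 and Mif, other genes of the list with a small p in macrophages, held 0 matches each.

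Genes of border macrophages were lower in both PT2385 pools for 7 of 10 and higher for none (median -2.0). Of all macrophage genes 24.8% were lower and 25.8% higher. With the macrophages that held a UMI of Nos2, Pf4 or Mrc1 left out, the median was 0.45. Pf4 and Mrc1 mark border macrophages, so a shift of this median was built into that choice of cells. Pf4 was at 8.94 and 11.0 CPM with PT2385 and 156 and 59.4 CPM with ICB (-3.43 ± 0.46, adjusted p = 0.097), beside 66.0 CPM untreated. Mgl2, a lectin of alternatively activated macrophages, was at 0.952 and 2.13 CPM against 86.4 and 15.0 CPM (-5.03 ± 0.90, adjusted p = 0.11). Proliferation genes had a median of -1.58 that was 0.03 without ICB pool 1, and Mki67 was at 16.4 and 18.2 CPM against 66.0 and 20.0 CPM. Summed markers of dendritic cells in macrophages were 84.5 and 70.4 CPM with PT2385 and 190 and 62.7 CPM with ICB, and those of microglia 193 and 183 against 264 and 200.4. All 11 and all 8 of these markers were detected, and their part in the results was not tested.

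In microglia, antigen presentation and interferon genes were higher with PT2385. Of 12937 genes 1 passed (0.00773%), and it was Ttr; 1600 had an unadjusted p under 0.05 (12.4%) and DESeq2 called 102. All 11 MHC class II genes tested were higher in both PT2385 pools than in either ICB pool, where 20.2% of all genes were higher and 21.4% lower. Their median was 1.80 (1.30 without ICB pool 1, 2.03 without ICB pool 2), beside 0.00 over all genes. H2-Ab1, the beta chain of the class II protein, was at 3109 and 2470.5 CPM with PT2385, 381 and 1076 CPM with ICB and 1764 CPM in the untreated library (1.94 ± 0.37, adjusted p = 0.12). Ciita, the master activator of class II genes, was at 46.2 and 45.7 CPM against 8.04 and 18.4 CPM (1.80 ± 0.29, adjusted p = 0.098). H2-Oa, which modulates peptide loading, was at 180.0 and 139 CPM against 41.5 and 64.6 CPM (1.59 ± 0.22, adjusted p = 0.075). For each of these genes ICB pool 1 was lowest.

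Cxcl9 was at 235 and 229 CPM in the microglia of the PT2385 pools and 39.1 and 73.0 CPM in those of the ICB pools (2.05 ± 0.28, adjusted p = 0.075). MHC class I genes were higher in 18 of 20 and lower in none (median 0.62, and 0.28 without ICB pool 1). Genes induced by interferon gamma were higher in 15 of 24 with 1 lower (median 0.74, and 0.38 without ICB pool 1). Type I interferon genes were higher in 17 of 32 with none lower (median 0.49, 0.33 without ICB pool 1 and 0.77 without ICB pool 2). In macrophages 1 of 32 was higher and 13 were lower (median -0.29, -0.045 without ICB pool 1 and -0.50 without ICB pool 2). Over all genes 20.2% were higher and 21.4% lower in microglia, and 25.8% higher and 24.8% lower in macrophages. The difference between these classes was not tested.

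On the other side, 12 of 19 immediate early and stress genes were lower in both PT2385 pools in microglia and none was higher (median -0.36). Jun, part of the AP-1 factor, was at 2427 and 2691 CPM with PT2385 and 4486 and 3584 CPM with ICB (-0.66 ± 0.17, adjusted p = 0.18). Adamts1, a secreted protease, was at 18 and 31.3 CPM against 79.3 and 77.2 CPM (-1.64 ± 0.21, adjusted p = 0.075). Ints6 differed by -1.03 ± 0.16 and Ssbp2 by 0.74 ± 0.11 (adjusted p = 0.089 each). Homeostatic microglia genes that were not used in classing had a median of -0.17, with 4 of 12 lower and none higher (-0.0067 without ICB pool 1, -0.35 without ICB pool 2). For both lists the shares over all microglia genes were 21.4% lower and 20.2% higher. Fcrls, a microglial receptor that was used in classing, was at 376 and 529.8 CPM against 1081 and 819 CPM.

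C4b, which passed in macrophages, was at 253 and 195 CPM in the microglia of PT2385 mice and 38.2 and 134 CPM in those of ICB mice (1.38 ± 0.41, adjusted p = 0.22). Spp1 lay in the opposite direction to macrophages, at 85.8 and 47.7 CPM against 17.5 and 15.6 CPM (1.99 ± 0.50, adjusted p = 0.18), with no test of the difference between the classes. Summed macrophage markers in microglia were 891 and 862 CPM with PT2385 and 536 and 974 CPM with ICB, with all 12 detected; T cell markers were 34.7 and 21.1 CPM against 21.9 and 12.3 CPM. Their part in these results was not tested. Without ICB pool 2, 352 microglia genes passed, and without ICB pool 1 2; without PT2385 pool 1 or without PT2385 pool 2 none did.

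Dendritic cells had the most genes that passed edgeR's test among the 7 classes, 51 of 10957 genes (0.465%), of which 3 rose (0.0274%) and 48 fell (0.438%) with PT2385 relative to ICB. Mgl2, the lectin also known from type 2 dendritic cells, was at 18 and 21.0 CPM with PT2385, 116 and 114 CPM with ICB and 12.9 CPM in the untreated library. It fell by 2.55 ± 0.18 (adjusted p = 5.7e-05), and the PT2385 pools lay much closer to the untreated library than the ICB pools did. Cyp7b1, an oxysterol hydroxylase, was at 8.35 and 15.2 CPM with PT2385, 75.2 and 76.4 CPM with ICB and 45.0 CPM untreated, and fell by 2.66 ± 0.24 (adjusted p = 4.2e-04). Both calls held in each of the 7 fits that left out 1 library. Cd209a and Emilin2 passed as well (-2.83 ± 0.32 and -2.02 ± 0.26), but both served in classing the cells.

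S100a6, a calcium-binding protein, stood at 423 and 397 CPM with PT2385 and 1009 and 776 CPM with ICB and fell by 1.12 ± 0.14 (adjusted p = 0.0061). Its relative S100a4 fell by 1.22 ± 0.18 and the galectin Lgals1 by 1.14 ± 0.19 (adjusted p = 0.013 and 0.023). Dab2, an endocytic adaptor, fell by 1.73 ± 0.27 and Ikzf2, the transcription factor Helios, by 1.86 ± 0.33 (adjusted p = 0.014 and 0.031). Of the 3 that rose, Zfhx3, a transcription factor, was at 101 and 101 CPM against 53.1 and 48.4 CPM (0.99 ± 0.16, adjusted p = 0.017). Dgkh, a diacylglycerol kinase, rose by 1.12 ± 0.18 (adjusted p = 0.017). S100a6 passed without ICB pool 1 (adjusted p = 0.027), while S100a4, Lgals1, Dab2, Ikzf2, Zfhx3 and Dgkh did not.

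Sterol genes in dendritic cells moved together. Of 16 tested, 6 fell and 1 rose in the test, and 11 were lower in both PT2385 pools with 2 higher, where 20.4% of all genes were lower and 20.3% higher. The list's median was -1.18 (-0.68 without ICB pool 1, -1.49 without ICB pool 2), beside 0.00 over all genes. Insig1 was at 18.5 and 15.6 CPM with PT2385 and 59.9 and 47.0 CPM with ICB, and fell by 1.66 ± 0.21 (adjusted p = 0.0061). The synthesis enzymes Hmgcs1, Fdps and Cyp51 fell by 1.30 ± 0.24, 1.51 ± 0.29 and 1.43 ± 0.26. Abcg1, the sterol exporter, was at 121 and 101 CPM with PT2385 and 63.4 and 46.3 CPM with ICB, and rose by 1.0 ± 0.19 (adjusted p = 0.038). Each of these 5 genes missed the threshold without ICB pool 1, with adjusted p of 0.055 for Insig1 and 0.058 for Abcg1.

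Genes of type I interferon were lower in dendritic cells, 14 of 32 in both PT2385 pools with 1 higher, and 3 of the 32 passed, all lower (median -0.57, and -0.05 without ICB pool 1). Of all dendritic genes 20.4% were lower and 20.3% higher. The promoters of Rsad2 and Ifit3, which encode antiviral proteins and passed, are shown with the interferon-stimulated response element in capitals as above (RefSeq, GRCm38.p6, 250 bases before the start, 5′ to 3′): Rsad2 on the - strand at chr12:26456453-26456702, Ifit3 on the + strand at chr19:34583279-34583528.
Rsad2: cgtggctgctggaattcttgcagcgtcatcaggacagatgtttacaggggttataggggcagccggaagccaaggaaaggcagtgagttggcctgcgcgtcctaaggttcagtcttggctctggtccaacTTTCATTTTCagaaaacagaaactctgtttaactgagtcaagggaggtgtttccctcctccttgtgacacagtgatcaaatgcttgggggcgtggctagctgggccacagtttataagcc
Ifit3: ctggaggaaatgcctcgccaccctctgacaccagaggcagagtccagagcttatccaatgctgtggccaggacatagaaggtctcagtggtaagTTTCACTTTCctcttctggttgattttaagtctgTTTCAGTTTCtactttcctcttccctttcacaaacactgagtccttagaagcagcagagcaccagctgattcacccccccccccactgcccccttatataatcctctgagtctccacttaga
The motif stood in 12 of 25 promoters found for this list (48%), against 3.46% of all promoters.

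Rsad2 stood at 16.7 and 24.0 CPM with PT2385, 91.2 and 58.8 CPM with ICB and 32.3 CPM untreated, and fell by 1.88 ± 0.25 (adjusted p = 0.0078; 0.055 without ICB pool 1). Ifit3 stood at 15.8 and 20.6 CPM against 79.7 and 38.0 CPM and fell by 1.70 ± 0.32 (adjusted p = 0.039; 0.30 without ICB pool 1). Ifit1, the third that passed, fell by 1.27 ± 0.24 (adjusted p = 0.042; 0.34 without ICB pool 1). ICB pool 1 was highest for all 3 genes. In macrophages Rsad2 was at 173 and 141 CPM against 153 and 119 CPM, and there the groups overlapped.

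Genes of type 1 dendritic cells were higher in both PT2385 pools in 5 of 8 and lower in none (median 0.29), and those of migratory dendritic cells higher in 6 of 9 and lower in 1 (median 0.27). Genes of type 2 dendritic cells were lower in 5 of 8 and higher in none, with 1 that fell (median -0.31). For these lists the shares over all dendritic genes were 20.3% higher and 20.4% lower. Xcr1 and Clec9a, receptors of type 1 dendritic cells, were at 188 and 233 CPM against 159 and 195 CPM and at 211 and 193 CPM against 139 and 168 CPM. Ccr7, the homing receptor of migratory dendritic cells, was at 968 and 778 CPM against 1020.2 and 748 CPM. Xcr1, Clec9a and Ccr7 served in classing these cells, and the list counts above leave them out. A Cd209a UMI was held by 2 of 146 and 1 of 138 dendritic cells with PT2385 and by 18 of 210 and 9 of 139 with ICB at 3000 UMIs per cell. When cells with a UMI of Cd209a or Mgl2 were left out, an alternative chosen after seeing the data, 22 genes passed. The median of the sterol list was then -1.20, that of the type I interferon list -0.21 and that of the type 2 list 0.31. Those of the type 1 and migratory lists were 0.13 and 0.04. Cd209a and Mgl2 are genes of type 2 dendritic cells, so the type 2 value was not independent of the choice of cells. In dendritic cells all 6 T cell markers were lower with PT2385, with a sum of 16.0 and 6.19 CPM against 56.0 and 37.5 CPM, and summed macrophage markers were 2368 and 1994 against 2181 and 2444 CPM; their part was not tested. Without ICB pool 1 16 dendritic genes passed, without ICB pool 2 101, without PT2385 pool 1 23 and without PT2385 pool 2 5.

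In CD4 T cells, Gzmc, Ccl5, Ccl3 and Klrd1 were among the genes that rose with PT2385 relative to ICB, and Tcf7, S1pr1 and Csf2 among those that fell. Of 11103 genes 36 passed (0.324%), 12 higher (0.108%) and 24 lower (0.216%). Gzmc, granzyme C, was at 58.5 and 70.8 CPM with PT2385 and 5.49 and 1.58 CPM with ICB, and rose by 4.09 ± 0.38 (adjusted p = 0.0041). The untreated library held 159 CPM, above both groups. Ccl5 was at 1339.5 and 1069 CPM with PT2385, 394 and 455 CPM with ICB and 858 CPM untreated, and rose by 1.51 ± 0.14 (adjusted p = 0.0041). Klrd1, the NK receptor subunit CD94, was at 479 and 530.0 CPM against 186 and 185 CPM and rose by 1.45 ± 0.15 (adjusted p = 0.0076). Ccl3, a chemokine for myeloid and T cells, was at 494 and 431 CPM against 98.0 and 84.6 CPM and rose by 2.34 ± 0.32 (adjusted p = 0.022). For each of these genes the libraries of the 2 groups lay well apart.

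The genes of CD4 T cells that rose also included Cx3cr1, the fractalkine receptor of effector cells (1.21 ± 0.20), and Serpinb1a, a protease inhibitor (1.43 ± 0.24; adjusted p = 0.045 each). Rbm47, Car5b and Myo10 rose by 1.49 ± 0.18, 1.82 ± 0.30 and 1.25 ± 0.21. Nkg7, Prf1 (perforin) and Ifng (interferon gamma) were higher in both PT2385 pools without passing, by 1.12 ± 0.24, 1.41 ± 0.31 and 1.10 ± 0.28 (adjusted p = 0.13, 0.14 and 0.19). Granzyme and perforin genes were higher in 5 of 13 and lower in 1, with 1 that passed, where 20% of all genes were higher. Chemokine genes were higher in 4 of 17 and lower in 6, with 2 that rose (median 0.05), and 20.4% of all genes were lower.

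Stem and memory genes of CD4 T cells were lower in both PT2385 pools for 11 of 12, where 20.4% of all genes were lower, and 2 passed (median -1.13; -0.98 without ICB pool 1, -0.99 without ICB pool 2). Tcf7, the transcription factor TCF1 of naive and memory T cells, was at 43.3 and 42.7 CPM with PT2385, 106 and 121 CPM with ICB and 61.1 CPM untreated, and fell by 1.39 ± 0.17 (adjusted p = 0.014). S1pr1, the receptor that leads T cells out of tissue, was at 40.9 and 32.7 CPM against 97.6 and 96.7 CPM and fell by 1.40 ± 0.18 (adjusted p = 0.017). Both passed without ICB pool 1 and without ICB pool 2. Slamf6 and Ccr7 lay at -1.28 ± 0.22 and -1.25 ± 0.22 (adjusted p = 0.052 each).

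Csf2, the cytokine GM-CSF, was at 26.6 and 26.6 CPM in the CD4 T cells of PT2385 mice, 134 and 138 CPM in those of ICB mice and 63.9 CPM in the untreated library. It fell by 2.35 ± 0.31 (adjusted p = 0.017). Ccr4, a chemokine receptor of helper and skin-homing T cells, fell by 1.79 ± 0.26, Il6st, the shared receptor subunit of the interleukin 6 family, by 1.34 ± 0.20, and Btla, an inhibitory receptor, by 1.05 ± 0.18 (adjusted p = 0.025, 0.035 and 0.045). Lrig1, Adk, Taf4b and Atf3 fell by 1.76 ± 0.23, 1.46 ± 0.20, 1.86 ± 0.30 and 1.32 ± 0.18. Without ICB pool 1 the calls of Ccr4, Il6st, Btla, Cx3cr1, Serpinb1a, Car5b and Myo10 were lost, and without ICB pool 2 that of Taf4b among others. Cd209a also passed in this class, at 0.476 and 0 CPM against 28.7 and 23.7 CPM, and it is a gene of dendritic cells. Summed dendritic markers in CD4 T cells were 415 and 372 CPM with PT2385 and 614 and 613 CPM with ICB, with all 11 detected, and NK markers 127 and 79.8 CPM against 93.7 and 44.3 CPM. Summed macrophage markers there were 1611 and 1792 CPM against 1055 and 1413 CPM, higher in both PT2385 pools, with all 12 detected. Those among them that T cells lack as a rule, such as Lyz2, summed to 203 and 133 CPM against 89.9 and 219 CPM, which overlapped. The dendritic list also holds Ccr7, Cadm1 and Tbc1d4, which T cells hold too. The part of these markers in the results was not tested. Without ICB pool 1 21 genes passed, without ICB pool 2 50, without PT2385 pool 1 2 and without PT2385 pool 2 1.

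In CD8 T cells 1 of 10982 genes passed (0.00911%), with 715 at an unadjusted p under 0.05 (6.51%) and 18 called by DESeq2. Mt1, a metallothionein that binds zinc and copper, was at 106 and 99.9 CPM with PT2385, 18.6 and 25.5 CPM with ICB and 42.8 CPM untreated, and rose by 2.21 ± 0.22 (adjusted p = 0.022; 0.15 without ICB pool 1). Ccl3 was at 308 and 225 CPM against 84.3 and 102 CPM (1.52 ± 0.21, adjusted p = 0.088) and Ccl4 at 1210.5 and 1258 CPM against 541 and 692 CPM (1.0 ± 0.15, adjusted p = 0.14). Dhx40, an RNA helicase, lay at -1.76 ± 0.22 and Aff3 at -2.11 ± 0.33 (adjusted p = 0.074 and 0.14). Xcl1, the ligand that draws Xcr1-bearing dendritic cells, was at 95.1 and 120.3 CPM against 363 and 341 CPM (-1.72 ± 0.28, adjusted p = 0.15). In all of these genes the groups did not overlap.

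All 12 stem and memory genes of CD8 T cells were lower in both PT2385 pools, where 18.2% of all genes were lower, and none passed (median -1.47; -0.59 without ICB pool 1, -2.04 without ICB pool 2). Tcf7 was at 43.6 and 43.5 CPM with PT2385 and 180.4 and 57.4 CPM with ICB. ICB pool 1 was far above ICB pool 2. Granzyme and perforin genes were higher in 7 of 14 and lower in 1 (median 0.22), where 18.1% of all genes were higher. Gzmk, granzyme K, was at 115 and 131 CPM against 55.2 and 62.2 CPM (1.06 ± 0.27, adjusted p = 0.47), while Gzmb overlapped between the groups. Chemokine genes were higher in 7 of 16 and lower in 2 (median 0.61).

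MHC class II genes, which T cells of mice make little of, had a median of 1.11 in the CD8 T class (0.73 without ICB pool 1), with 6 of 11 higher and none lower. Over all CD8 T genes 18.1% were higher and 18.2% lower. Summed macrophage markers there were 2357 and 2346 CPM with PT2385 and 2344 and 1516 CPM with ICB, with all 12 detected. Those among them that T cells lack as a rule summed to 163 and 179 CPM against 119 and 136 CPM. Dendritic markers were at 113 and 132 against 160 and 102 CPM. The part of these markers in the results was not tested. Without ICB pool 1 no CD8 T gene passed, without ICB pool 2 68, and without PT2385 pool 1 or pool 2 none.

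In regulatory T cells none of 9856 genes passed (0%) by edgeR and none by DESeq2, and 424 had an unadjusted p under 0.05 (4.3%). Rgs16, which damps G protein signals, was at 174 and 137 CPM with PT2385 and 59.1 and 65.7 CPM with ICB (1.34 ± 0.20, adjusted p = 0.21). Cpm, a carboxypeptidase, was at 79.5 and 68.0 CPM against 171 and 173 CPM (-1.21 ± 0.18, adjusted p = 0.21). Foxp3, the factor that defines and here classes these cells, was at 242 and 306 CPM against 300.1 and 290.2 CPM. Sterol genes were lower in both PT2385 pools in 10 of 14 and higher in 1, where 17.1% of all genes were lower and 16.5% higher (median -1.22, and -0.46 without ICB pool 1). Hypoxia and glycolysis genes were lower in 15 of 27 and higher in none (median -0.25), the opposite direction to macrophages, with no test of the difference. Idi1, of sterol synthesis, was at 15.4 and 18.2 CPM against 58.5 and 40.2 CPM (-1.59 ± 0.29, adjusted p = 0.41). The class held 76 to 158 cells per library.

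In NK cells 2 of 9565 genes passed (0.0209%), Cxcr4 and Ttr, with 692 at an unadjusted p under 0.05 (7.23%) and 9 called by DESeq2. Cxcr4, a chemokine receptor that holds cells in marrow and tissue, was at 83.5 and 70.9 CPM with PT2385, 162 and 204 CPM with ICB and 138 CPM untreated. It fell by 1.23 ± 0.17 (adjusted p = 0.024), and passed without ICB pool 1 and without ICB pool 2. Cxcr4 is also in the list of genes associated with HIF-2α, of which 6 were tested in NK cells and 1 passed. Klrg1, a receptor of mature NK cells, was at 64.1 and 46.4 CPM against 13.3 and 21.5 CPM (1.74 ± 0.31, adjusted p = 0.084). Cmah, Homer1 and Fam107b lay at -1.69 ± 0.28, -1.55 ± 0.27 and -0.66 ± 0.11 (adjusted p = 0.082, 0.084 and 0.082).

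Genes of NK maturation and residency were higher in both PT2385 pools in 12 of 17 and lower in 2, where 18.2% of all genes were higher and 18.8% lower (median 0.44; 0.34 without ICB pool 1, 0.54 without ICB pool 2). S1pr5, which lets mature NK cells leave marrow, was at 25.3 and 17.3 CPM against 9.02 and 6.93 CPM (1.37 ± 0.43, adjusted p = 0.43). Gzmb was at 1790.4 and 2106 CPM against 1599 and 1371 CPM (0.39 ± 0.12, adjusted p = 0.44), and Il7r, of less mature cells, at 21.1 and 31.8 CPM against 38.6 and 70.6 CPM (-1.0 ± 0.32, adjusted p = 0.44). Summed T cell markers in NK cells were 663 and 638 CPM with PT2385 and 842 and 697 CPM with ICB, with all 6 detected, and their part was not tested. Without ICB pool 1 42 NK genes passed, without ICB pool 2 27, and without PT2385 pool 1 or pool 2 none.

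**Figure D3:**
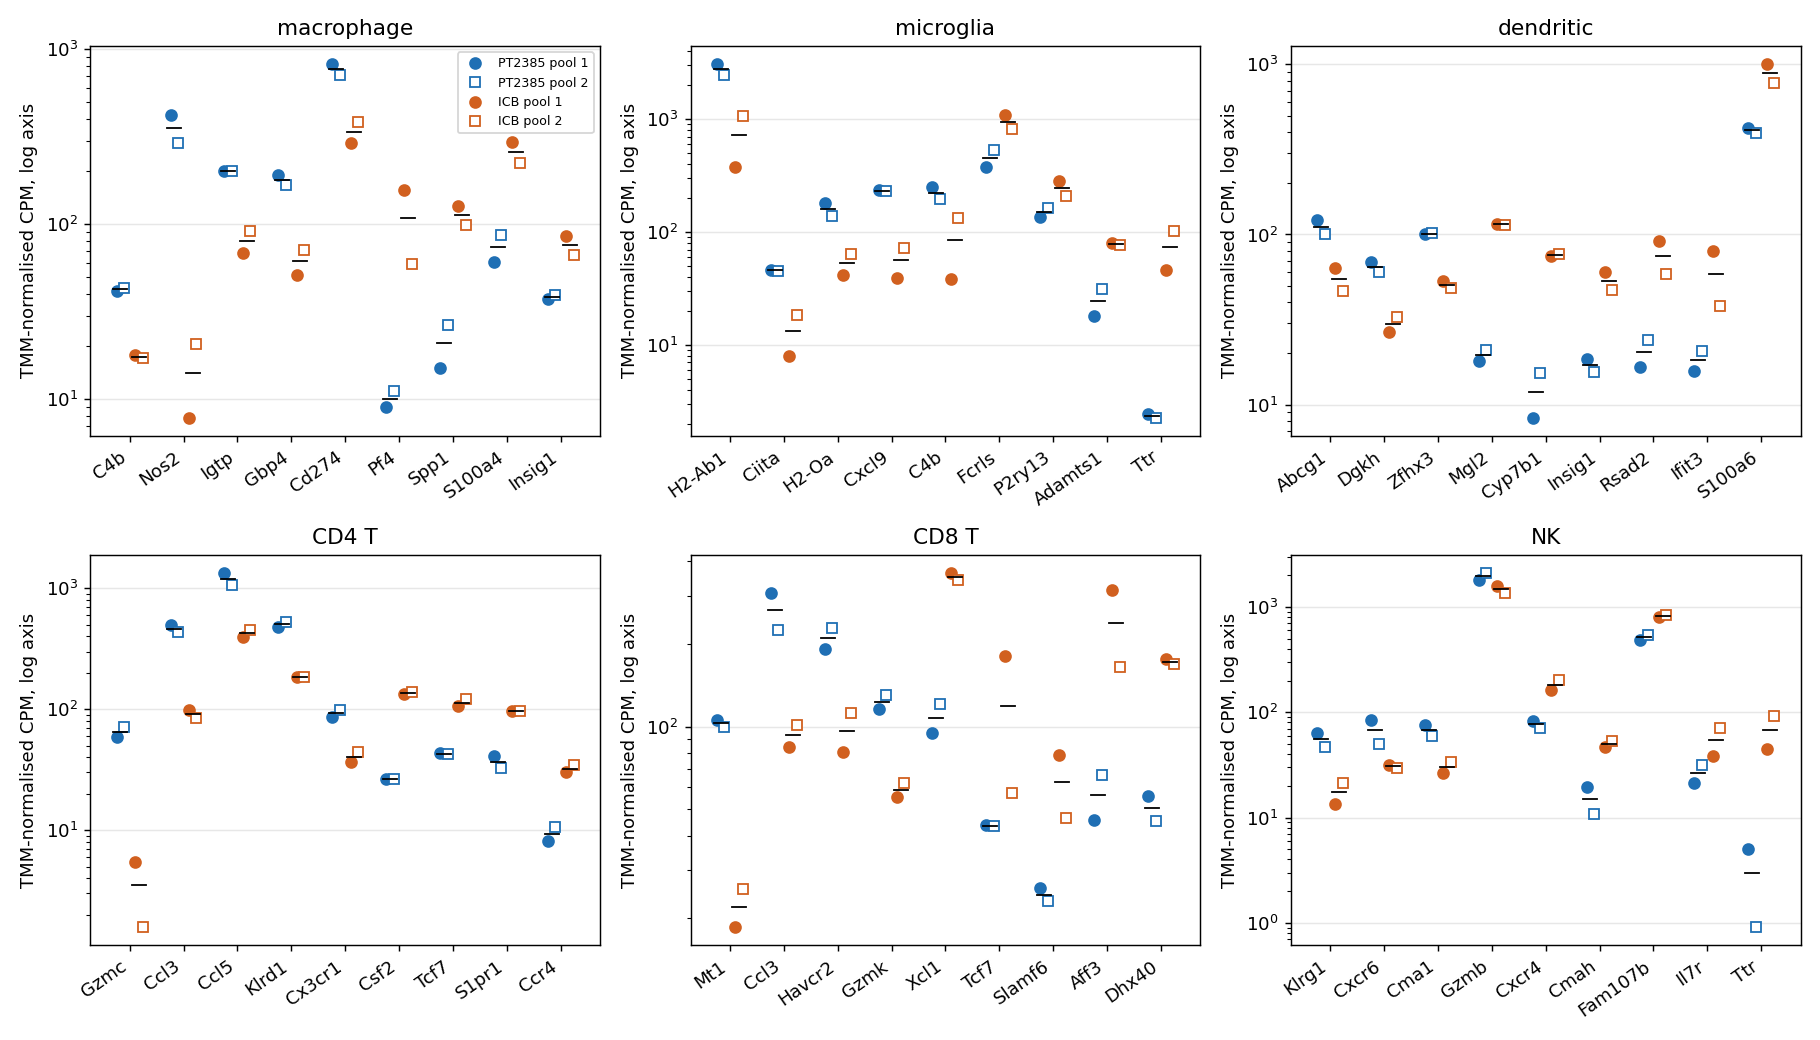
Levels of 9 genes in each of 6 cell classes (CPM with TMM normalisation, log axis) in the 4 libraries; filled circles are pool 1, open squares pool 2, blue PT2385, orange ICB, bars group means. For Tcf7 in CD4 T cells the pools of a group lie close together (43.3 and 42.7 against 106 and 121 CPM). For H2-Ab1 in microglia ICB pool 1 lies below ICB pool 2 (381 and 1076 CPM). Genes that passed were picked by a test that favours a small spread within groups.

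The genes of the drug targets did not pass in any class. Epas1 was near the floor in macrophages, at 0.714 and 1.06 CPM with PT2385 and 1.11 and 1.21 CPM with ICB (-0.39 ± 0.30, adjusted p = 0.52). Hif1a, of the other oxygen-regulated subunit, was at 643 and 585 CPM against 196 and 542 CPM there, with ICB pool 1 far below the rest (0.73 ± 0.41, and 0.18 without ICB pool 1). Pdcd1 in CD8 T cells was at 358 and 344 CPM with PT2385 and 255 and 389 CPM with ICB, which overlapped (0.12 ± 0.24, adjusted p = 0.97). Havcr2 in CD8 T cells was at 192 and 229 CPM against 80.5 and 112 CPM, with 289 CPM untreated (1.12 ± 0.18, adjusted p = 0.14). At 3000 UMIs per cell a Havcr2 UMI was held by 33.5% and 41.2% of CD8 T cells with PT2385 and by 20.6% and 29.7% with ICB, against 0.806% to 1.39% of NK cells. Median depth before thinning was 5320 to 6737 UMIs in these NK cells.

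Several lists had a median of the same sign with each ICB pool alone, and others did not. In macrophages the interferon gamma, sterol and chemokine lists kept their sign, while the proliferation list was at 0.03 against ICB pool 2 alone and -2.30 against ICB pool 1 alone. In dendritic cells and NK cells the type I interferon list was at -0.05 and -0.10 against ICB pool 2 alone and at -0.90 and -0.63 against ICB pool 1 alone. In CD4 T cells the stem and memory list was at -0.98 and -0.99.

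**Figure D4:**
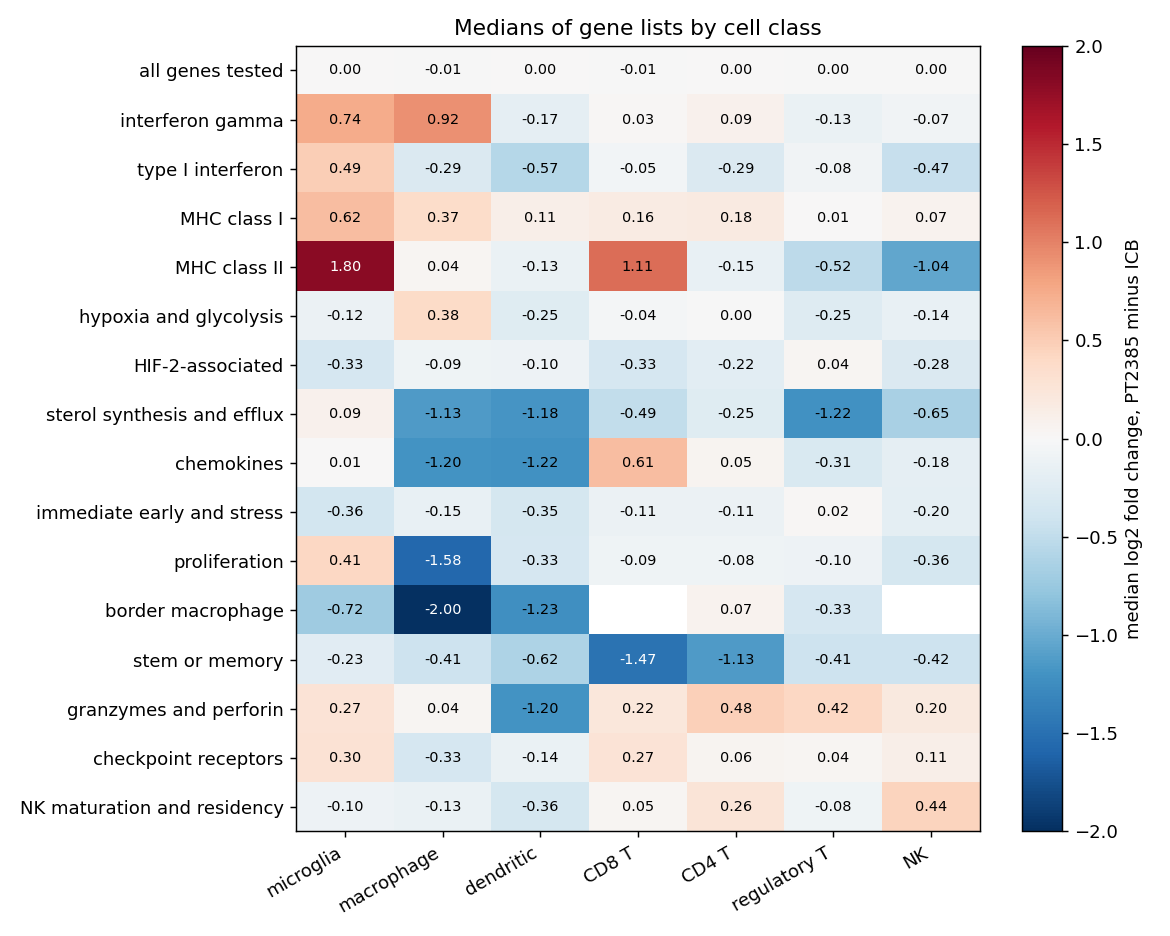
Median log2 fold change (PT2385 minus ICB) of gene lists in each cell class, with all genes tested in the top line; blank cells had under 5 tested members. MHC class II in microglia (1.80) and border macrophage genes in macrophages (-2.0) lie farthest from the medians of all genes, which are -0.01 to 0.00.

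**Figure D5:**
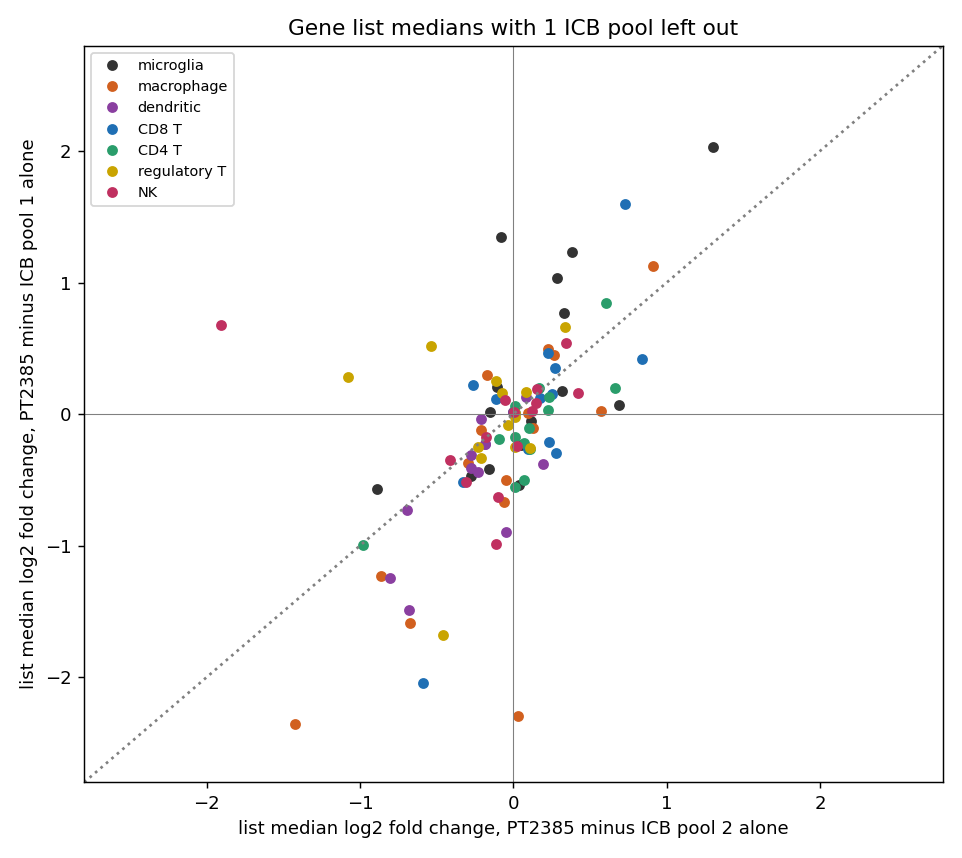
Each point is the median log2 fold change of 1 gene list in 1 cell class, with ICB pool 2 alone on the x axis and ICB pool 1 alone on the y axis; both axes share the PT2385 pools. Points off the dotted line depend on the ICB pool, such as proliferation in macrophages (0.03 and -2.30).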

How the data were processed

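Gene counts (UMIs) per cell from 10x 3′ v3.1 libraries of CD45+ DRAQ7- cells were used as deposited. The submitters' processing notes name Cell Ranger 2.2.0, Seurat 5 and the build GRCm39, while per the file headers the count matrices were written by Cell Ranger 7.0.0. Barcodes under 300 detected genes, or over 10% of UMIs from mitochondrial genes, were dropped. Doublets were scored with Scrublet in scanpy 1.11.5, which by its own threshold called 10 in 7 libraries. In place of these calls, the barcodes with the highest scores were removed at a preset rate of 0.8% per 1000 barcodes, 1948 in all. Cells were classed into lineages by marker UMIs per 10000 UMIs, with at least 3 marker UMIs. T cells were then split on fewer UMIs. CD8 T cells held more CD8 than CD4 marker UMIs and no Foxp3. Where CD8 markers were scarce, any Foxp3 UMI made a regulatory T cell, and any Cd4 or Cd40lg UMI without Foxp3 a CD4 T cell. A regulatory T cell whose Foxp3 was not captured could thus be classed as CD4 T. Counts were summed per library and class and tested with edgeR 4.0.16 (quasi-likelihood, TMM, group means over all 7 libraries, contrast PT2385 minus ICB), with Benjamini-Hochberg adjustment over all genes of a class and a threshold of 0.05. Shares of classes and states were tested the same way on cell counts. Cells were thinned to 3000 UMIs, and classed again on the thinned counts, where shares of cells with a UMI are given. Intervals and floors cover counting error only. No label says that the pools of a group came from separate experiments.

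Named genes passed the threshold with a mean of at least 20 CPM in the 4 libraries (the 8 largest rises and 8 largest falls). Where fewer than 6 passed, the 6 of smallest p are given, and from each gene list the 2 to 4 of smallest p. Members and lists were chosen with earlier results of these data known. Alternatives were the 4 libraries alone, an additive model, DESeq2 1.42.0, RLE factors, no filter on low counts, thinned cells, stricter markers, doublets kept, a stricter cell filter, other denominators and factors for shares, and each library left out. An alternative added after seeing the data left out macrophages with a UMI of Nos2, Pf4 or Mrc1 and dendritic cells with one of Cd209a or Mgl2. Gene tests were checked on simulated counts. Values of some members are not reported here.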

Additional observations from a re-analysis of the deposited data

How the results depend on the processing

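Counts of genes that passed depended strongly on the setting. With the 4 libraries alone 20 microglia, 0 macrophage, 4 CD8 T and 0 NK genes passed. The additive model gave 52 in macrophages, 2 in CD8 T, 12 in CD4 T and 5 in NK cells. DESeq2 gave 102 in microglia, 760 in macrophages, 18 in CD8 T, 64 in CD4 T and 9 in NK cells. Without a filter on low counts 652, 81, 380, 253, 373, 93 and 159 genes passed in microglia, macrophages, dendritic, CD8 T, CD4 T, regulatory T and NK cells. With thinned cells it was 59 in microglia, 132 in macrophages, 15 in CD8 T, 67 in CD4 T, 5 in regulatory T and 76 in NK cells. With doublets kept it was 5 in microglia, 5 in macrophages, 25 in dendritic cells, 1 in regulatory T and 5 in NK cells. With state cells left out it was 138 in macrophages and 22 in dendritic cells. The cause of these shifts was not tested.

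Leaving out 1 library at a time gave 0 to 352 genes in microglia, 0 to 2482 in macrophages, 5 to 101 in dendritic cells, 0 to 68 in CD8 T, 1 to 58 in CD4 T, 0 to 17 in regulatory T and 0 to 42 in NK cells, 0 to 2 cell classes and 2 to 5 macrophage states. No cell class (0) passed with TMM factors, with the denominator of named immune classes (which holds no choroid plexus) or by the exact permutation test. The CD4 T share reversed to -0.0067 with that denominator, -0.0068 with stricter markers, -0.012 with the stricter cell filter, and lay between -0.070 and 0.10 with 1 library left out (-0.0038 without PT2385 pool 2). The dendritic and regulatory T shares reversed to 0.12 and 0.16 with TMM factors, and with 1 library left out regulatory T lay between -0.73 and 0.25 (without ICB pool 1). The CD8 T share lay between -0.23 (without PT2385 pool 1) and 0.47. The interferon state of macrophages was -0.017 with doublets kept and lay between -0.26 (without ICB pool 2) and 0.35 (without ICB pool 1). No paired analysis was possible because the labels give the pools no replicate numbers that PT2385 and ICB share. Cell numbers limit the precision of small classes, such as regulatory T cells with 76 to 158 cells per library.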

Other observations

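Shares of 5 rarer classes, none of which passed the test, were each highest in ICB pool 1. Mast cells or basophils made up 0.462% and 0.315% of kept cells with PT2385 and 2.57% and 0.343% with ICB (log2 fold change -1.90 ± 1.07, and 0.18 without ICB pool 1). Neutrophils took 0.161% and 0.138% against 0.893% and 0.163% (-1.81 ± 1.28, and -0.12 without ICB pool 1). B or plasma cells took 1.01% and 0.315% against 1.64% and 0.470%, and their difference changed sign, from -0.68 to 0.49, without ICB pool 1. T cells that could not be placed as CD4 or CD8 took 2.11% and 1.38% against 5.09% and 1.99% (-1.02 ± 0.69, and -0.19 without ICB pool 1). Neural or glioma cells took 0.141% and 0.0985% against 0.839% and 0.0542% (-1.88 ± 1.29, and 1.11 without ICB pool 1). Group 2 innate lymphoid, gamma-delta T, plasmacytoid dendritic and erythroid cells were also highest in ICB pool 1. For plasmacytoid dendritic cells the margin was narrow (0.928% against 0.925% in PT2385 pool 1). Endothelial cells, another rare class, were not highest there, at 0.201% and 0.177% against 0.161% and 0.0904%.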
